A study of Rattus norvegicus with 18 samples.

Results

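The myelin genes Mbp, Mog, Mag, Mobp, Cnp, Cldn11, Opalin, Ermn and Ugt8 were followed in 2 rat models of epilepsy. The tissue was the left hippocampus, and the rats were Sprague-Dawley adult males. The 9 genes were chosen by symbol from the 17455 genes of the deposited table of read counts. All 9 were in the table, and all 9 were among the 13338 genes with enough counts to be tested. In the kainic acid (KA) model, rats received kainic acid systemically after electrodes had been implanted and went into status epilepticus. In the kindling (KI) model, brief electrical stimulation of the hippocampus was given on repeated occasions each day until seizures were fully kindled. Each model had a group labelled 3 Class V (KA, n = 3 and KI, n = 4) and a sham group (KA, n = 7 and KI, n = 4), and tissue was taken 24 h after the last seizure. The sources used here do not say what the shams of each model received, nor spell out the name 3 Class V further. The labels also leave it unsaid whether each library came from its own rat, so the p-values measure the spread between these samples.

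Myelin is the stack of oligodendrocyte membrane that insulates axons and lets them conduct quickly. Its compact part is held together at the cytoplasmic face by basic proteins (Mbp, Mobp), its outer surface carries Mog, its inner face against the axon carries Mag, and its lipid is rich in galactosylceramide, which Ugt8 makes. Oligodendrocytes switch these genes on together when they mature, under transcription factors such as Sox10 and Olig1, and in the hippocampus they are found mainly in the fibre tracts. In bulk tissue, fewer oligodendrocytes and less myelin RNA per oligodendrocyte cannot be told apart.

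The bases just before the transcript start are shown for 4 of the genes, so that genes with different patterns can be set side by side. Cnp and Cldn11 fell in the KI model, Mobp had the largest difference of the 9 between the 2 sham groups, and Opalin had the smallest coefficient of variation of the 9 among the KA shams (17.2%). Each run holds the 250 bases before the start of transcription in RefSeq's annotation of GRCr8, 5′ to 3′ on the gene's own strand. Mobp lies at chr8:128746982-128747231 (plus strand), Cnp at chr10:86011254-86011503 (plus strand), Cldn11 at chr2:114149540-114149789 (minus strand) and Opalin at chr1:249858191-249858440 (minus strand). Capitals mark ACAAAG or its reverse complement CTTTGT, a core sequence to which SOX factors can bind. The letters were searched on both strands.

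Mobp: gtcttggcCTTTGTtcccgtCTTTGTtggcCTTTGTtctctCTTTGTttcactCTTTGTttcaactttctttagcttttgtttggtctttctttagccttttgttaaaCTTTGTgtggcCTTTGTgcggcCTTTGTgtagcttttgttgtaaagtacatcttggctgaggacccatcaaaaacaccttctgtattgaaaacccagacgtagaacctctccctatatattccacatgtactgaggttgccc
Cnp: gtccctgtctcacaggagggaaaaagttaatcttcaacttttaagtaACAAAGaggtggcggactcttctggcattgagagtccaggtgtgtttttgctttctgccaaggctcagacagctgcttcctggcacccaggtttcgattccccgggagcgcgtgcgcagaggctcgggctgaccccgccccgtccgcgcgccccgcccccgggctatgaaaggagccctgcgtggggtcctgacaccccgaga
Cldn11: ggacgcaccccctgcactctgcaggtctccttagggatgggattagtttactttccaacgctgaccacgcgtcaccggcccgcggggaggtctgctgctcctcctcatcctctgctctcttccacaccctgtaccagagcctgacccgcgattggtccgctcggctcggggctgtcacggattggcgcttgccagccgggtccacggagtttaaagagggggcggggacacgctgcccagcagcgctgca
Opalin: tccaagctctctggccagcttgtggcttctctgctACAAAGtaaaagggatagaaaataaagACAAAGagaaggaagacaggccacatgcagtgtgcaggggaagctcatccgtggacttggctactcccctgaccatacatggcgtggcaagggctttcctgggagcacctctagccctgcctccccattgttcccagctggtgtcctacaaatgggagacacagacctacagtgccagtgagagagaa

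Of 33469 rat windows of this length, 16.3% held at least 1 such core. Mobp held 8, a number reached in 2 of the 33469 windows, its own included. All 8 read CTTTGT, in a window with 41.6% G or C, against a median of 51.2% over all windows. Opalin held 2, Cnp held 1 and Cldn11 held none. Of the genes not printed, Mag held 1, Ugt8 held none, and Mbp, with 2 annotated windows, held none in the first and 1 in the second. Mog and Ermn had no window matched by symbol. A match is a string of letters and not a shown binding site.

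The 18 libraries held 30925368 to 49943021 counts assigned to genes. In 3 libraries, 9.67 to 16.4% of counts fell on 7 ribosomal RNA-like genes (KA sham 4, KI sham 2 and KI 3 Class V 1), against 0.571 to 2.0% in the others. The mean log2 CPM of 88 ribosomal protein genes ranged from 6.89 to 8.35 among KA shams and from 7.03 to 8.06 among KI shams. It ranged from 7.25 to 7.47 among KA 3 Class V libraries and from 6.89 to 7.19 among KI 3 Class V libraries. The library labelled KA sham 1 correlated with the 4 KI 3 Class V libraries at a mean r of 0.993 and with the other KA shams at 0.978 (log2 CPM across genes, which are not independent replicates). Such means were not computed for the other KA shams, so how unusual these values are is not known. The ribosomal protein levels of KA sham 1 (6.97) and KA sham 6 (6.89) lay within the KI 3 Class V range. The part of this level in the correlation was not tested. Whether the label of KA sham 1 is right could not be settled, and the library was kept as labelled. CPM here stands for the count relative to the library's size after TMM scaling, and values are not compared between genes because gene lengths were not used. The 9 myelin genes together took 0.999 to 2.54% of a library's counts in the KA shams, 1.08 to 1.12% in KA 3 Class V, 1.26 to 1.42% in the KI shams and 0.618 to 1.08% in KI 3 Class V. Most of these counts were those of Mbp. Its mean was 14472 CPM in the KA shams, where the 9 summed to a mean of 18381 CPM. In KI 3 Class V it was 6457 of 8748 CPM.

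**Figure D1:**
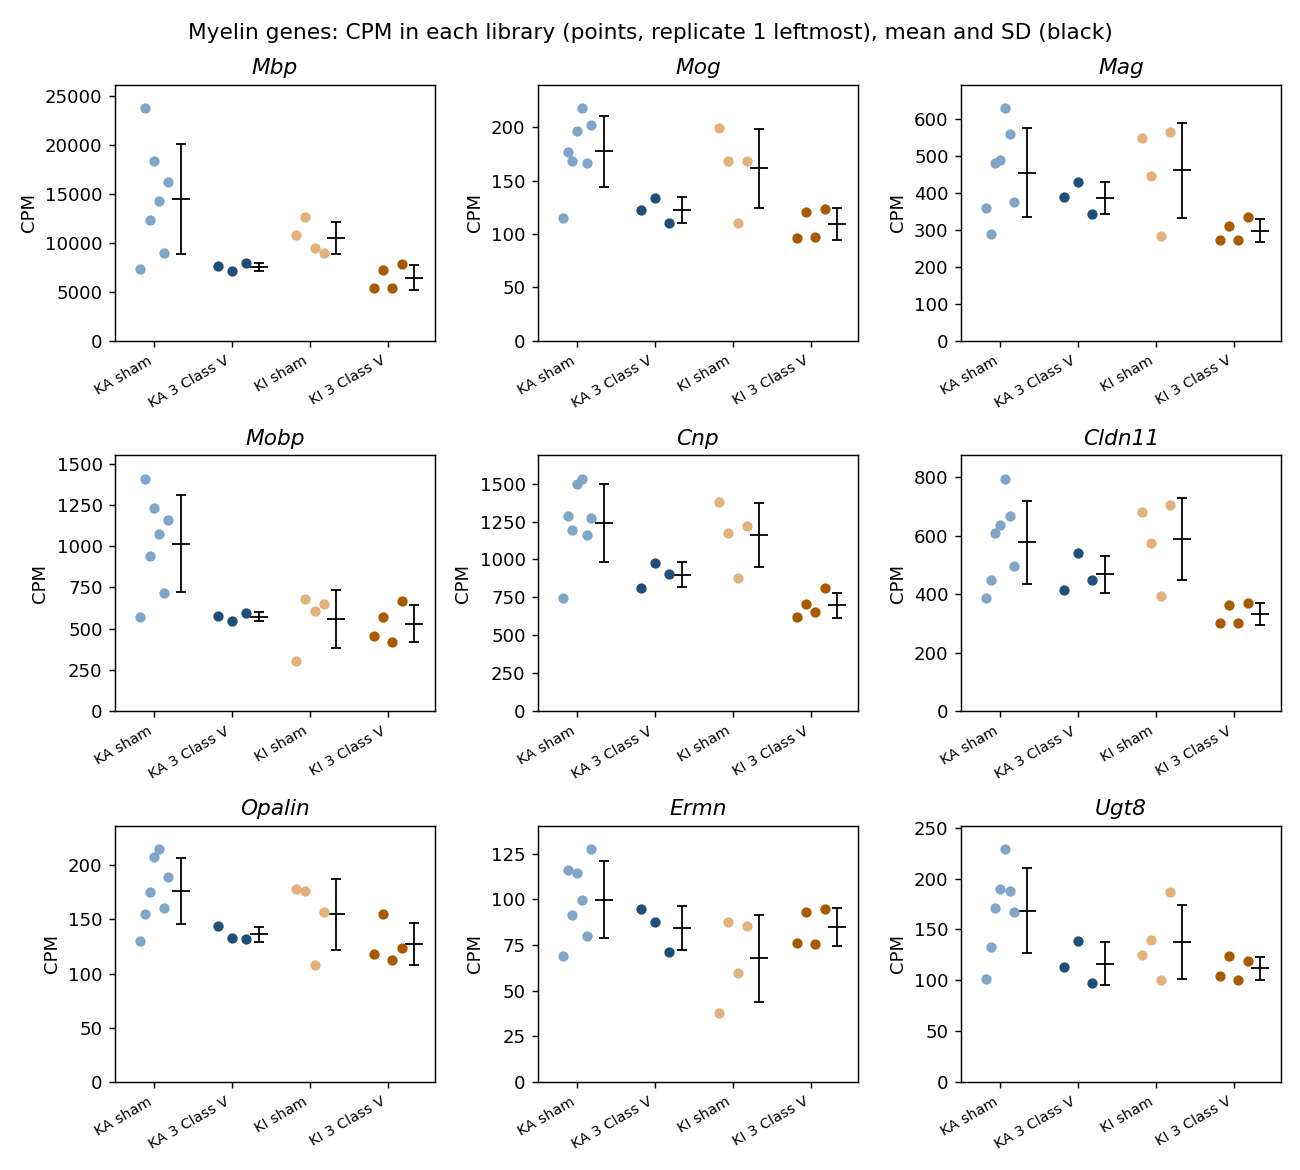
CPM of each of the 9 myelin genes (vertical axis, one panel per gene) in every library of the 4 groups, with the mean and SD in black. The 3 KA 3 Class V libraries sit low and close together in the Mbp and Mobp panels, and the KI 3 Class V libraries sit below every KI sham in the Mbp, Cnp and Cldn11 panels.

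After kainic acid, all 9 myelin genes had lower fitted levels in the 3 Class V group than in the KA shams, by 14.8 to 47.7%, and none passed the test (edgeR's quasi-likelihood test, adjusted p from 0.178 to 0.772). Over all genes, 0.172% passed in either direction in this comparison, 23 of them higher and 0 lower. An unadjusted p under 0.05 with a lower level was found for 6 of the 9, against 3.59% of all genes. Of all genes 52.0% had a log2 change below 0. The median log2 change of the 9 was −0.47, and that of all tested genes was −0.011. DESeq2 called 1 of the 9 (Mbp) and limma-voom called 2 (Mbp and Mobp), where these tools called 1.91% and 5.44% of all genes.

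Mbp, the basic protein that seals the cytoplasmic faces of compact myelin, ranged over 7349.7 to 23781 CPM (median 14281) in the KA shams and was 7619.6, 7129.8 and 7942 CPM in KA 3 Class V. KA sham 1 was the only sham at that level, and the lowest KA 3 Class V library lay below it. The log2 change was −0.94 ± 0.28 (SE), with an edgeR adjusted p of 0.178. Mobp, a smaller basic protein of compact myelin, ran over 573 to 1409 CPM (median 1071) in the KA shams and was 578, 546 and 596 CPM in KA 3 Class V. Again KA sham 1 was the only sham at their level. Its log2 change was −0.82 ± 0.27 (adjusted p = 0.235). Both genes varied far less among the 3 KA 3 Class V libraries than among the 7 shams, with a coefficient of variation of 5.40% against 39.0% for Mbp and of 4.41% against 29.0% for Mobp. The ribosomal protein level, as mean log2 CPM, also varied less there, with an SD of 0.109 against 0.545. Its part in the spread of these genes was not tested.

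Cldn11, the claudin that forms the tight junctions between the turns of myelin, ran over 388 to 795 CPM (median 611) in the KA shams and was 416, 539.9 and 449 CPM in KA 3 Class V, well inside the sham range. Its log2 change was −0.30 ± 0.21 (adjusted p = 0.656). Cnp, an enzyme of the cytoplasmic channels that stay open in myelin, ran over 749 to 1532 CPM (median 1274) in the shams and was 813, 978 and 904 CPM in KA 3 Class V. Only KA sham 1 lay below the KA 3 Class V libraries, and the log2 change was −0.47 ± 0.18 (adjusted p = 0.356). Mag, the adhesion protein of the innermost wrap, ran over 288 to 629 CPM (median 479) in the shams and was 387, 429.8 and 344 CPM in KA 3 Class V. It had the smallest change of the 9, −0.23 ± 0.22 (adjusted p = 0.772).

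Mog, an immunoglobulin-like protein of the outermost lamella, ran over 115 to 218 CPM (median 177) in the KA shams and was 123, 134 and 110.2 CPM in KA 3 Class V, a log2 change of −0.54 ± 0.19 (adjusted p = 0.265). Opalin, a sialylated membrane protein of mature oligodendrocytes, ran over 129.7 to 215 CPM (median 175) in the shams and was 144, 133 and 132 CPM in KA 3 Class V, a log2 change of −0.37 ± 0.17 (adjusted p = 0.471). For both, KA sham 1 was the only sham that reached the KA 3 Class V range. Ermn, an actin-binding protein of late oligodendrocytes, ran over 69.1 to 128 CPM (median 99.8) and was 94.6, 87.4 and 70.9 CPM in KA 3 Class V (−0.24 ± 0.23, adjusted p = 0.758). Ugt8, the enzyme that makes galactosylceramide, ran over 101 to 229 CPM (median 171) and was 113, 139 and 96.8 CPM in KA 3 Class V (−0.54 ± 0.22, adjusted p = 0.374). The KA groups overlapped for these 2 genes through more than 1 sham.

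KA sham 1 was the lowest of the 7 KA shams for 8 of the 9 genes, the exception being Mag, which was lowest in KA sham 2. With all shams in, none of the 9 genes had every KA 3 Class V library below every sham, against 2.70% of all genes. Without KA sham 1, Mbp, Mog, Mobp, Cnp and Opalin did (5 of 9, against 4.10% of all genes). KA sham 1 was singled out for its low values of these genes, which favours that separation. Without any 1 of the other 17 libraries 0 of the 9 were separated, where 2.69 to 5.13% of all genes were. None of the 9 passed edgeR's test without KA sham 1 or without any other single library.

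In the kindling model 2 of the 9 myelin genes passed the test, and both fell. Cnp was 40.0% lower in KI 3 Class V than in the KI shams and Cldn11 was 43.4% lower. Over all genes, 9.99% passed in either direction in this comparison and 5.25% passed as lower (700 genes). Another 6 of the 9 had negative fitted changes that did not pass, and Ermn had a positive one; over all genes, 53.2% of log2 changes were below 0. The median log2 change was −0.56, and that of all tested genes was −0.040. An unadjusted p under 0.05 with a lower level was found for 5 of the 9, against 18.2% of all genes. DESeq2 called 4 of the 9 (Mog, Mag, Cnp and Cldn11) and limma-voom called 7, where these tools called 22.3% and 55.1% of all genes.

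Cnp was 1377, 1173, 876 and 1224 CPM in the KI shams and 620.4, 709.7, 651 and 809 CPM in KI 3 Class V. Every KI 3 Class V library lay below every KI sham, and KI sham 3 was the nearest. The log2 change was −0.74 ± 0.18, with an edgeR adjusted p of 0.0325. Cldn11 was 683, 574, 396 and 704 CPM in the KI shams and 301, 362, 301 and 369 CPM in KI 3 Class V, again with no overlap. Its log2 change was −0.82 ± 0.21 (adjusted p = 0.0329).

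Both calls depended on which libraries were kept. Without KI sham 2, KI 3 Class V 1, KI 3 Class V 2 or KI 3 Class V 3, the edgeR adjusted p of Cnp was 0.0531, 0.105, 0.0666 and 0.0903, and that of Cldn11 was 0.0526, 0.106, 0.0666 and 0.0916. Cldn11 was also lost without KI sham 1 (adjusted p = 0.0505). Over the 18 fits that each left out 1 library, the log2 change stayed between −0.86 and −0.65 for Cnp and between −0.98 and −0.74 for Cldn11. With the ribosomal protein level as a covariate the changes were −0.62 (adjusted p = 0.106) and −0.95 (adjusted p = 0.0559), and without the 3 libraries rich in ribosomal RNA-like counts the adjusted p was 0.147 for both. Of all genes, 0.787% and 0.128% passed in KI in these fits. Without any 1 of KI 3 Class V 1, 2 or 3, only 9 of all genes tested passed in KI, and the 10 genes outside the lineage lists that are named below as having passed in KI did not (adjusted p from 0.0541 to 0.132).

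Mbp was 10823, 12651, 9496 and 8977 CPM in the KI shams and 5428, 7215, 5345 and 7839.8 CPM in KI 3 Class V. The groups did not overlap, so that Mbp, Cnp and Cldn11 were the 3 of 9 genes with every KI 3 Class V library below every sham, against 8.07% of all genes. The log2 change of Mbp was −0.70 ± 0.27 (edgeR adjusted p = 0.0884). Mobp was 303, 682, 607 and 653 CPM in the KI shams and 458, 572, 422 and 667 CPM in KI 3 Class V. The lowest of these 8 libraries was KI sham 1, the groups overlapped broadly, and the log2 change was −0.083 ± 0.26 (adjusted p = 0.833).

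Mag was 548, 444, 284 and 566 CPM in the KI shams and 273, 311, 271 and 335 CPM in KI 3 Class V, a log2 change of −0.63 ± 0.23 (edgeR adjusted p = 0.0700). Mog was 199.5, 169, 110.3 and 168 CPM in the shams and 96.5, 121, 97.1 and 123 CPM in KI 3 Class V, a log2 change of −0.56 ± 0.19 (adjusted p = 0.0575). For both, KI sham 3 alone reached into the KI 3 Class V range. Without KI sham 3, Mag, Mog and Ugt8 joined Mbp, Cnp and Cldn11 among genes with no overlap, making 6 of 9 against 9.29% of all genes. This library too was singled out for its low values. Without any 1 of the other 17 libraries 3 of the 9 were separated, where 7.96 to 26.6% of all genes were. Opalin was 178, 177, 108 and 157 CPM in the KI shams and 118, 155, 112 and 124 CPM in KI 3 Class V (−0.28 ± 0.17, adjusted p = 0.234).

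Ugt8 was 125, 139, 100.2 and 186 CPM in the KI shams and 104, 123, 101 and 118 CPM in KI 3 Class V, a log2 change of −0.30 ± 0.22 (edgeR adjusted p = 0.312). KI sham 4 was the only sham well above the others. Ermn was 37.5, 87.8, 59.6 and 85.5 CPM in the KI shams and 75.9, 93.2, 75.5 and 94.5 CPM in KI 3 Class V, a log2 change of 0.33 ± 0.23 (adjusted p = 0.304). KI sham 1 held the lowest Ermn and Mobp of all 18 libraries, while its Cnp, Mog and Opalin were the highest among the KI shams.

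**Figure D2:**
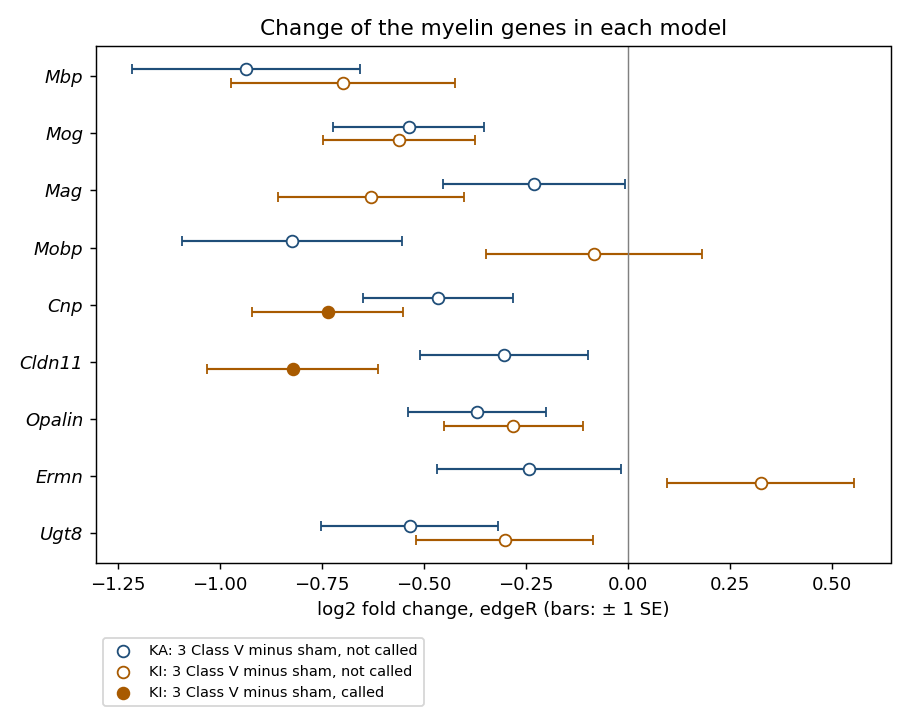
Log2 fold change from edgeR (horizontal axis) of each myelin gene in the KA and KI models, with bars of 1 SE and filled points for genes that passed. Only Cnp (−0.74) and Cldn11 (−0.82) in KI are filled, every KA point lies left of 0, and Ermn in KI (0.33) is the one point to the right.

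The change in the KA model was compared with that in the KI model by the interaction term of the same fit. None of the 9 passed (edgeR adjusted p from 0.270 to 0.972), against 3.80% of all genes. None of the 9 reached an unadjusted p under 0.05, which 9.17% of all genes did as lower and 11.4% as higher. For Cldn11 the KA change minus the KI change was 0.52 ± 0.29, for Mobp −0.74 ± 0.37 and for Ermn −0.57 ± 0.32 on the log2 scale. Intervals this wide do not show that the models acted alike.

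The sham groups of the 2 models were compared in the same way, and none of the 9 passed, against 0.00750% of all genes (1 gene). Mobp was 1015 ± 294 CPM (SD, n = 7) in KA shams and 561 ± 175 CPM (SD, n = 4) in KI shams, a log2 difference of 0.86 ± 0.24 (edgeR adjusted p = 0.564). Ermn differed by 0.56 ± 0.21 and Mbp by 0.46 ± 0.25 in the same direction, and neither passed. Mag and Cldn11 differed by −0.020 ± 0.20 and −0.028 ± 0.18. Ordered by group mean, 8 of the 9 genes were lowest in KI 3 Class V, the exception being Ermn, which was lowest in KI shams. KA shams had the highest mean for 7, and KI shams for Mag and Cldn11. Of 27 pairs of neighbouring group means 23 overlapped in their libraries and 4 did not (14.8%, against 4.95% of such pairs over all genes tested). Those without overlap were KI sham above KA 3 Class V for Mbp, and KA 3 Class V above KI 3 Class V for Mag, Cnp and Cldn11.

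**Figure D3:**
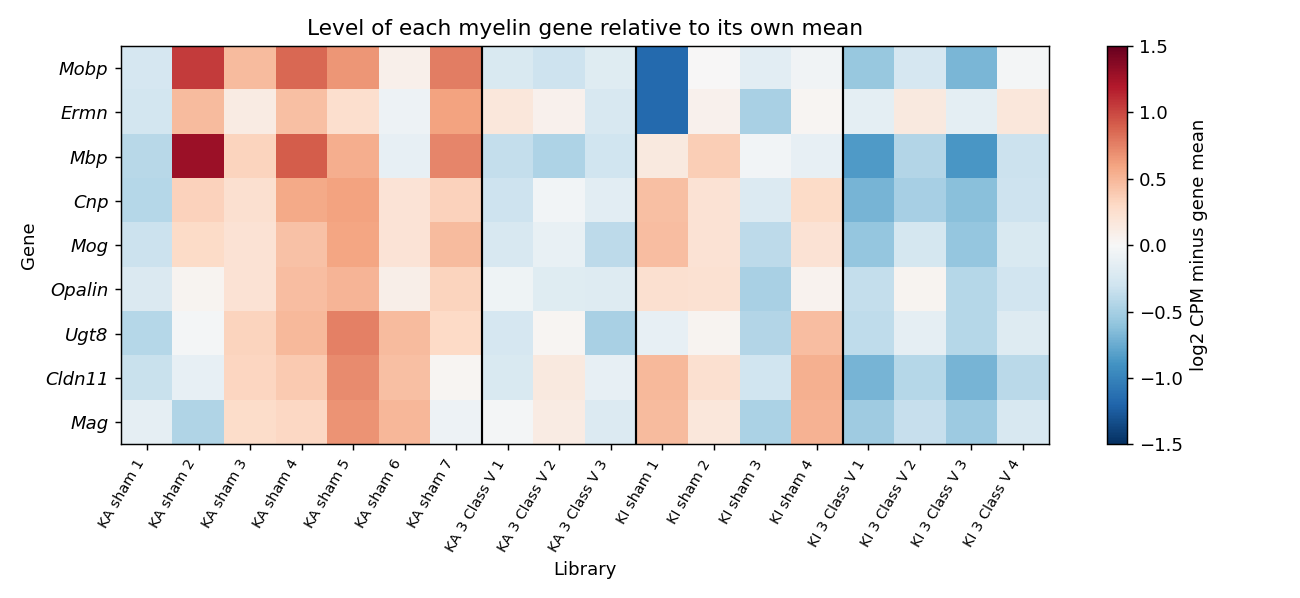
Log2 CPM of each myelin gene (rows) in every library (columns) minus that gene's mean over all 18 libraries, red above and blue below. Mobp and Ermn are deep blue in KI sham 1, where Cnp, Mog, Cldn11 and Mag are red, and Mbp and Mobp are deepest red in KA sham 2, where Mag is blue.

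The 9 genes did not vary as a single block. Correlations were computed from each library's deviation from its group mean, over the 18 libraries, and are given as a description. The 36 pairs ran from −0.17 to 0.93 with a median of 0.59. Mag and Cldn11 had r = 0.93, Mog and Cnp 0.93, Cldn11 and Ugt8 0.89, and Mog and Opalin 0.89. Mobp and Ermn moved together at 0.89, and Mbp and Mobp at 0.74. The lowest pairs were Mag with Mobp at −0.17 and Mbp with Mag at −0.14. Other pairs across these sets were higher, such as Mbp with Cnp at 0.67 and Mbp with Mog at 0.59. The libraries share their depth and composition in all these pairs.

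Ratios within a library show the same split and do not depend on the scaling factors. They were chosen after the values had been seen and were not tested. Ermn per Cldn11 was 0.251 to 0.257 in the 4 KI 3 Class V libraries and 0.0549 to 0.153 in the KI shams, with no overlap. In KA shams it was 0.120 to 0.259 and in KA 3 Class V 0.158 to 0.227, which overlap. Mobp per Cldn11 was 1.40 to 1.81 in KI 3 Class V and 0.443 to 1.53 in KI shams. Mbp per Mag was 16.02 to 82.6 in KA shams, with the highest in KA sham 2, and 16.6 to 23.1 in KA 3 Class V. KA sham 2 also had the highest ribosomal protein level and the highest blood cell RNA, whose part in the ratio was not tested.

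**Figure D4:**
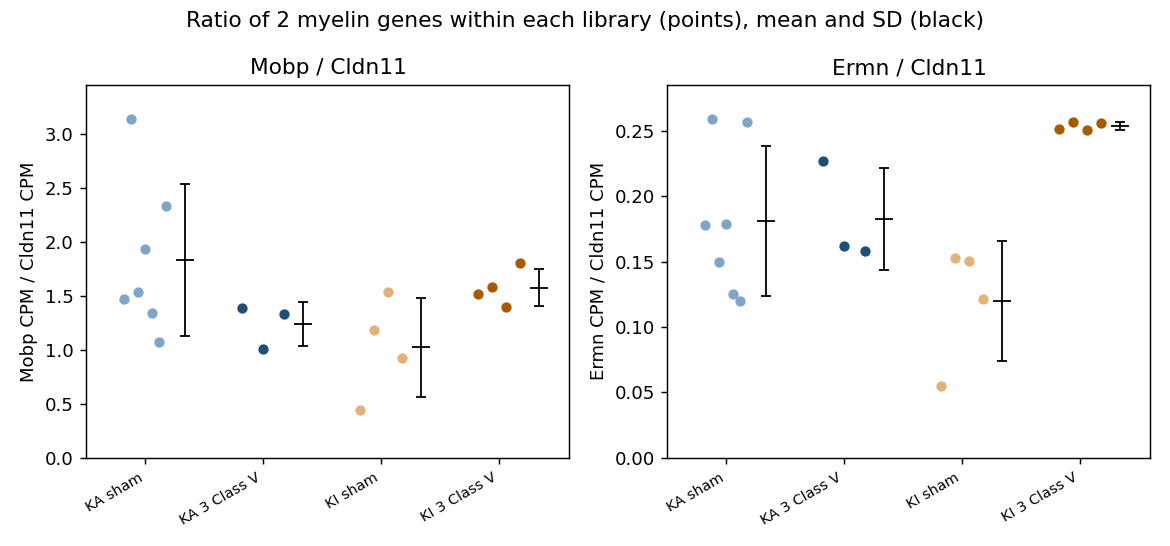
Ratio of Mobp CPM to Cldn11 CPM (left) and of Ermn CPM to Cldn11 CPM (right) in every library of the 4 groups, with mean and SD in black. The 4 KI 3 Class V points for Ermn per Cldn11 lie within 0.251 to 0.257, above all 4 KI shams.

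Other genes of the lineage were taken from lists. Of all genes tested, 5.25% fell and 4.74% rose in KI, with a median log2 change of −0.040. Of 17 further myelin and mature oligodendrocyte genes in the table, 5 fell in KI and none rose (edgeR), with a median log2 change of −0.49. They were Pllp, a proteolipid of myelin (−0.60 ± 0.14, adjusted p = 0.0282), Gal3st1, which adds sulfate to the lipid that Ugt8 makes (−0.72 ± 0.17, 0.0284), Nkx6-2, a homeodomain factor of mature oligodendrocytes (−0.81 ± 0.20, 0.0327), Aspa, which splits N-acetylaspartate (−0.79 ± 0.24, 0.0480), and Ninj2, an adhesion protein (−0.91 ± 0.28, 0.0490). In KA none of the 17 passed and 13 had negative changes (52.0% of all genes), with a median of −0.23 (−0.011 for all genes). The smallest p-values there were those of Gal3st1 (−0.60 ± 0.17, adjusted p = 0.157), Ndrg1 (0.40 ± 0.12, 0.202) and Tspan2, a tetraspanin (−0.60 ± 0.22, 0.291).

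Among 7 transcription factors of the lineage, Tcf7l2 (−1.16 ± 0.26, edgeR adjusted p = 0.0275) and Olig1 (−0.48 ± 0.14, 0.0455) fell in KI, where 5.25% of all genes fell. St18 went the other way without passing (0.84 ± 0.32, adjusted p = 0.0804), with every KI 3 Class V library above every sham, as for 12.1% of all genes. None passed in KA, where Olig1 was at −0.25 ± 0.14, Nkx2-2 at −0.30 ± 0.20 and Sox10 at −0.15 ± 0.16. Tcf7l2, which also marks thalamic neurons, changed by −0.70 without KI sham 4 and passed, in a fit where 32.3% of all genes passed. Of 9 precursor and newly formed oligodendrocyte genes, 3 fell in KI, against the same 5.25%. They were Tmem163, a zinc transporter (−1.19 ± 0.21, 0.0209), C1ql1, secreted by precursors (−0.64 ± 0.14, 0.0256), and Enpp6, a phosphodiesterase of newly formed oligodendrocytes (−1.24 ± 0.31, 0.0327). The precursor markers Pdgfra and Cspg4 did not pass (0.24 ± 0.23 and 0.14 ± 0.28), nor did Tnr (0.90 ± 0.46) and Sox6 (0.43 ± 0.42). In KA none of these 9 passed, and the smallest p-values were those of Tmem163 (−0.75 ± 0.21, adjusted p = 0.148), Bcas1 (−0.46 ± 0.25) and Cspg4 (0.46 ± 0.27). Of the 10 list genes that fell in KI, 5 to 10 passed when 1 library was left out, and 0 when that library was KI 3 Class V 1, 2 or 3. Of all genes, 0.999 to 32.3% passed in KI in the former 15 fits and 0.0675% in each of the latter.

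**Figure D5:**
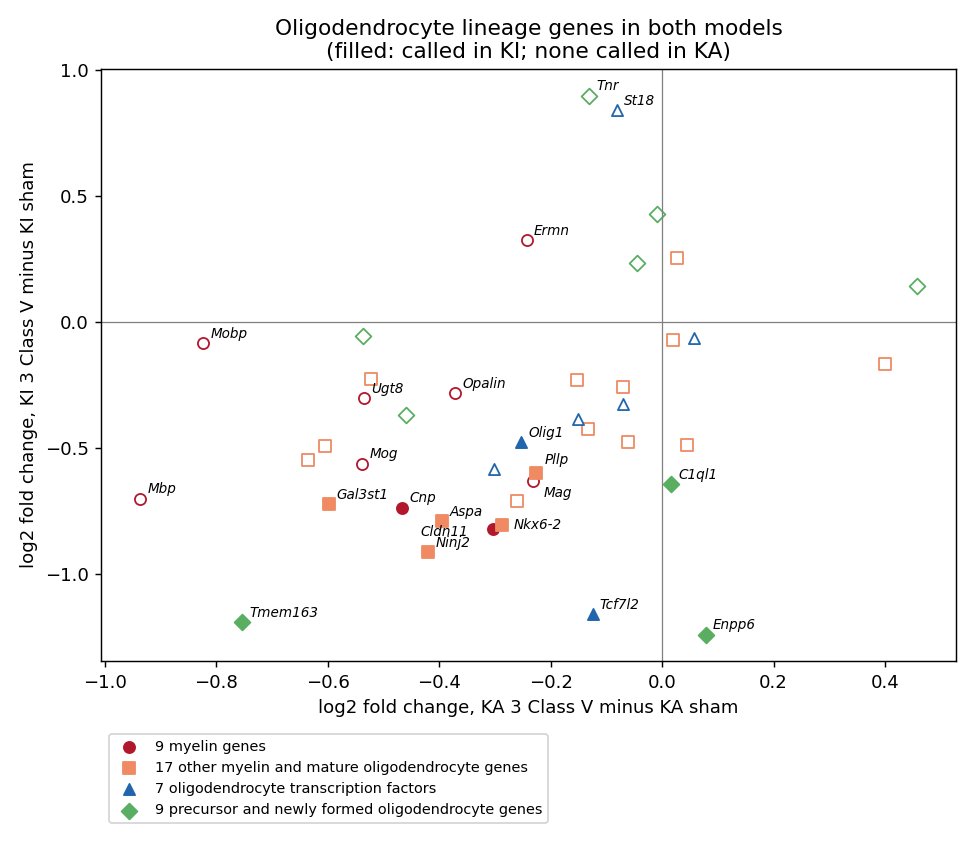
Log2 fold change in KA (horizontal axis) against that in KI (vertical axis) for the 9 myelin genes and 3 lists of oligodendrocyte lineage genes, filled where the gene passed in KI. The 12 filled points all lie below 0 on the KI axis, and no gene passed in KA.

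The genes whose profile was most like the mean of the 9 were ranked by the correlation of within-group deviations over the 18 libraries, among 9418 other genes with a mean log2 CPM of at least 3. Among the closest were Tspan2 (r = 0.905), Tmem125 (0.892), Ca14 (0.874), Dusp15 (0.840), Elovl1 (0.830), Cyp2j10 (0.823) and Gal3st1 (0.818), where the median of all was −0.03 and the 95th percentile 0.38. Tspan2 was 195, 212 and 170.3 CPM in KA 3 Class V, 197, 248, 189 and 264 CPM in KI shams and 139, 189, 139 and 172 CPM in KI 3 Class V. Its log2 change in KI was −0.49 ± 0.22 (edgeR adjusted p = 0.121). Of these 7, Gal3st1, Tmem125 (−0.77 ± 0.19, adjusted p = 0.0303) and Elovl1, which lengthens fatty acids (−0.69 ± 0.18, 0.0333), fell in KI, where 5.25% of all genes fell. Tmem125 and Elovl1 did not pass there without KI 3 Class V 1, 2 or 3. None of the 7 passed in KA.

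Markers of other cells moved in the same libraries, and their part in the myelin gene values was not tested. In KI, all 10 neuron markers had positive changes and 3 rose (Gad2, Syt1 and Slc17a7, where 4.74% of all genes rose), with summed levels of 4041 to 6708 CPM in shams and 7650.3 to 9121 CPM in KI 3 Class V. All 7 microglia markers had negative changes in KI and 3 fell (Tmem119, C1qa and Aif1, where 5.25% of all genes fell), with sums of 515 to 1107 and 389 to 411 CPM. Neither list's sum overlapped between the KI groups, and no neuron, astrocyte or microglia marker was at 0 in any group. Of 8 astrocyte markers Aqp4 rose in KI, with sums of 4336 to 7679 and 6216 to 7742 CPM, and of 6 endothelial and pericyte markers Cldn5 fell, with sums of 308 to 397 and 315 to 366 CPM. In KA, of the same astrocyte markers Gfap rose, with sums of 4785 to 8587 CPM in shams and 10838 to 13149 CPM in KA 3 Class V. Gfap itself, a large part of these sums, had means of 3576 and 8446 CPM in these groups. Of the 8 markers, 5 had positive and 3 negative changes in KA. In KA no neuron or microglia marker passed. Of the 10 neuron markers 7 had negative and 3 positive changes there, with sums of 6409 to 8241 and 6086 to 6278 CPM, which did not overlap. All 7 microglia markers had positive changes in KA, with sums of 353 to 925 and 777 to 1072 CPM, which overlapped.

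Tissue from outside the hippocampus varied between libraries too. The 6 choroid plexus markers summed to 17.97 to 977 CPM in KI shams and 14.4 to 33.7 CPM in KI 3 Class V, and to 20.9 to 624 and 14.2 to 42.2 CPM in the KA groups, highest in KI sham 4 and KA sham 3. Without these 2 libraries Cnp and Cldn11 in KI were −0.74 and −0.75 on the log2 scale, and both passed (edgeR adjusted p = 0.0216 and 0.0255). In that fit 29.6% of all genes passed in KI, against 9.99% with all libraries. The part of the other tissues in the myelin gene values was not tested. The 6 blood cell genes summed to 319.9 to 5067 CPM in KA shams, 307 to 715 in KA 3 Class V, 416 to 2570.3 in KI shams and 312 to 704 in KI 3 Class V, and Hba1 was at 0 in every group but KI 3 Class V. The 4 thalamus markers summed to 21.5 to 74.6 CPM in KI shams and 41.8 to 49.3 CPM in KI 3 Class V. The 5 Schwann cell and peripheral myelin genes summed to 145 to 231 and 149 to 173 CPM in the KI groups, with Ncmap at 0 in KI 3 Class V, and none of the 4 that could be tested passed in either model (edgeR).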

How the data were processed

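RNA was measured in 18 libraries of left hippocampus, made from polyadenylated RNA and sequenced as 110-base single reads, per the labels' protocols. The authors deposited whole-number read counts per gene symbol, not normalized. The submitters' processing notes name FastQC, Trimmomatic, HISAT2, featureCounts, DESeq2 and the build rn6; their versions, the annotation, strandedness and the handling of multi-mapped reads are not stated in those notes or the labels, so reads of overlapping genes cannot be told apart.

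Genes were tested with edgeR 4.0.16 in R 4.3.3 (robust quasi-likelihood F test, TMM factors, filterByExpr with a minimum count of 10) in 1 fit over all 18 libraries with 14 residual degrees of freedom. P-values were adjusted over 13338 genes by Benjamini-Hochberg, with a threshold of 0.05. SE was obtained as |log2 change| over the root of F; a prior count of 2 entered log2 CPM. DESeq2 1.42.0 and limma 3.58.1 (voom with quality weights) were alternatives. The fit was tested on simulated data. Libraries of a group were compared in 36 pairs; each pair differed by more than counting noise, and none were merged.

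The genes and lists were chosen with earlier results of these data known. In the lineage lists the genes that passed are named, or the 3 with the smallest p-values where none did; of the 8 genes closest in profile, 7 are named. Some results are not reported here.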

Additional observations from a re-analysis of the deposited data

Results flagged for a closer look

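Of 25 genes of the lineage (the myelin genes and those named from the lists) whose change was compared between the models, 0 passed edgeR's test at the adjusted threshold. In 27 sets of 4 or 7 libraries (9 genes in 3 groups), no library stood apart from its group by Dixon's test. KA 3 Class V, with 3 libraries, was too small for it.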

How the results depend on the processing

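The KA result of 0 called genes and the KI result of 2 held with RLE factors, without a filter, without the ribosomal RNA-like genes and with each model fitted alone. In these fits 0.129 to 0.247% of all genes passed in KA and 5.85 to 10.8% in KI. Upper quartile factors and a stricter filter called 3 in KI (Mog, Cnp and Cldn11), where 9.83% and 10.8% of all genes passed, and 0 in KA. DESeq2 called 1 of the 9 in KA and 4 in KI, and limma-voom called 2 and 7. With the ribosomal protein covariate 1 was called in KA (Mbp) and 0 in KI, where 1.54% and 0.787% of all genes passed. Leaving out KI sham 3 and KI sham 4 gave 4 in KI, where 28% of all genes passed. Leaving out the 3 libraries rich in ribosomal RNA-like counts, an alternative chosen after seeing the data, gave 0 in KI. There 0.128% of all genes passed. Leaving out 1 library at a time gave 0 in KA throughout and 0 to 5 in KI. In these fits 0.0670 to 0.825% of all genes passed in KA and 0.0675 to 32.3% in KI. The 5 came without KA sham 2, where 18.3% of all genes passed in KI. The deviations of same-numbered libraries had r from −0.154 to 0.0091 over 3 KA pairs and from −0.166 to −0.068 over 4 KI pairs. So few pairs cannot show whether the numbers pair anything. With a replicate block, 0 of the 9 and 0 of all genes were called in KI, and the KA median was −0.20.

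The signs below changed for values near 0 that did not pass edgeR's test with all libraries; of them, limma-voom called Mobp lower in KI (−0.46). With limma-voom the KA change minus the KI change of Mbp was 0.23, and the KA sham minus KI sham difference was 0.28 for Mag and 0.22 for Cldn11. With the replicate block the KA change of Mag was 0.069, and the difference between models was 0.10 for Opalin and 0.075 for Ugt8. With the ribosomal protein covariate Mobp in KI was 0.12 and the difference between models was −0.055 for Mog. Without KI sham 3 and KI sham 4, Mobp in KI was 0.084, Opalin differed between models by 0.12, and the shams differed by −0.068 for Mog, −0.057 for Cnp and −0.028 for Opalin. Without the 3 libraries rich in ribosomal RNA-like counts Mobp in KI was 0.082 and Mog differed between models by −0.047. Without the 2 libraries richest in choroid plexus RNA, also chosen after seeing the data, the shams differed by 0.057 for Mag and 0.031 for Cldn11. Leaving out 1 library at a time, Mobp in KI ran from −0.29 to 0.024. The difference between models ran from −0.093 to 0.17 for Mog and from −0.16 to 0.048 for Opalin. The difference between shams ran from −0.20 to 0.075 for Mag, from −0.18 to 0.050 for Cldn11, from −0.012 to 0.25 for Mog and from −0.023 to 0.19 for Cnp. The cause of these changes was not tested.

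The count of all genes called, 23 in KA and 1332 in KI, ran from 9 to 110 and from 9 to 4297 when 1 library was left out. It was 33 and 1438 with RLE factors, 23 and 1311 with upper quartile factors, 254 and 2965 with DESeq2, 725 and 7355 with limma-voom, 3 and 0 with the replicate block, and 205 and 105 with the ribosomal protein covariate. Without KI sham 3 and KI sham 4 it was 69 and 3740, with each model fitted alone 17 and 759, and without the libraries rich in ribosomal RNA-like counts 27 and 17. Without those richest in choroid plexus RNA it was 19 and 3937, and with the stricter filter 12 and 1129.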
